A study of Homo sapiens with 4 samples.

Results

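The receptors of the epidermal growth factor (EGF) family and their ligands were followed in HCT116, a human colorectal carcinoma line, after knockdown of RALY, which encodes an hnRNP-type protein that binds RNA. The set is a fixed list of 9 genes, matched by symbol to the gene identifiers of the count tables: 3 receptors (EGFR, ERBB2 and ERBB3), 5 ligands that bind EGFR (AREG, EREG, TGFA, HBEGF and BTC) and NRG1, a ligand of ERBB3. All 9 were found among the 58884 genes of the tables, and all 9 passed the filter on low counts that left 19686 genes for testing. The series holds 2 control and 2 RALY knockdown libraries of total RNA. Per the labels, the cells grew in RPMI-1640 medium with 10% fetal bovine serum and were exposed for 72 h to lentivirus, with 10 µg/ml polyprene, that carried a hairpin RNA aimed at RALY or at nothing. The titles and source labels of the controls read wild type and untreated, so whether those libraries received the nonsilencing virus cannot be told from the labels. Replicate 2 of each group carries the source label HCT-117, although its cell line field, like that of replicate 1, gives HCT-116. How many hairpins or clones were used is not given, and separate cultures are not stated, so the p-values rest only on how far these libraries differ, and that spread may be technical.

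EGFR, ERBB2 and ERBB3 are receptor tyrosine kinases that signal as pairs. Ligand binding opens EGFR and ERBB3 for pairing, ERBB2 binds no known ligand and is the favoured partner of the others, and ERBB3 has little kinase activity of its own but recruits phosphoinositide 3-kinase. The ligands are made as membrane-anchored precursors and are released by metalloproteases, mainly ADAM10 and ADAM17. In the intestinal epithelium EGFR signalling drives proliferation, and in colorectal cancer EGFR is a drug target while AREG and EREG transcripts are used as markers of ligand-driven tumours.

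Library totals ran from 13360007 to 16847520 counts, so that 3 counts, the floor for an undetected gene, correspond to 0.178 to 0.225 CPM (counts per 1000000); this floor covers counting error only. RALY fell to 27.9% of its control level, from 134 ± 14.8 to 37.3 ± 3.14 CPM (SD, n = 2 each), a log2 fold change of -1.84 (SE 0.13, adjusted p = 6.59e-06 in edgeR). Counts of abundant genes were assumed to level off relative to transcript length, and the levelling off itself was not tested. The mean count as a share of 2 counts per base of the canonical transcript, called occupancy here, was between 0.234% and 21.2% for the 9 genes, and counts corrected for the levelling off gave the same 6 calls among them. Of 10 colorectal epithelial markers, KRT8 was highest, and 4 (VIL1, CDH17, CEACAM5 and LGALS4) stayed under 1 CPM in every library. The sum over the list was 598 to 694 CPM in the controls and 628 to 670 CPM in the knockdown. KRT8, KRT18, KRT19 and EPCAM had occupancies of 58.5% to 82.8%, where counts are assumed to level off. The sum may therefore understate a difference. CDX2, an intestinal transcription factor, was the 1 marker of that list called, and fell by 0.47 on the log2 scale. The summed fibroblast markers spanned 195 to 226 and 227 to 247 CPM, with COL1A1 highest, 4 of 7 (COL1A2, COL3A1, DCN and LUM) under 1 CPM and COL6A3 called higher. The 7 leukocyte markers summed to 33.7 to 37.2 and 34.7 to 35.0 CPM. CD68 was highest, PTPRC, CD3E and LYZ were under 1 CPM, and ITGAM was called higher. CD68 shares 85.6% of its exon bases with other genes, so its counts are uncertain. The 5 endothelial markers summed to 10.4 to 10.6 and 8.52 to 10.5 CPM, and none was called.

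HBEGF, NRG1, EGFR, EREG and TGFA were higher and ERBB2 was lower after RALY knockdown, while ERBB3, AREG and BTC did not pass the test. The rises ran from 1.46-fold for TGFA to 2.79-fold for HBEGF, and the level of ERBB2 was 74.3% of the control level. Thus 5 of 9 members rose and 1 fell, where 12.5% of all tested genes were called higher, 13.1% lower and 25.6% in either direction (edgeR quasi-likelihood test, adjusted p under 0.05). For 7 of the 9 the groups were separated, all values of one lying above those of the other, which also held for 63.6% of the genes tested. The median log2 fold change was 0.54 over the 9 members and 0.01 over all tested genes. The members were listed with earlier results of these data known, so these counts describe the list and are no test of it. In bulk RNA, fewer cells expressing a gene and less RNA per cell cannot be told apart.

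**Figure D1:**
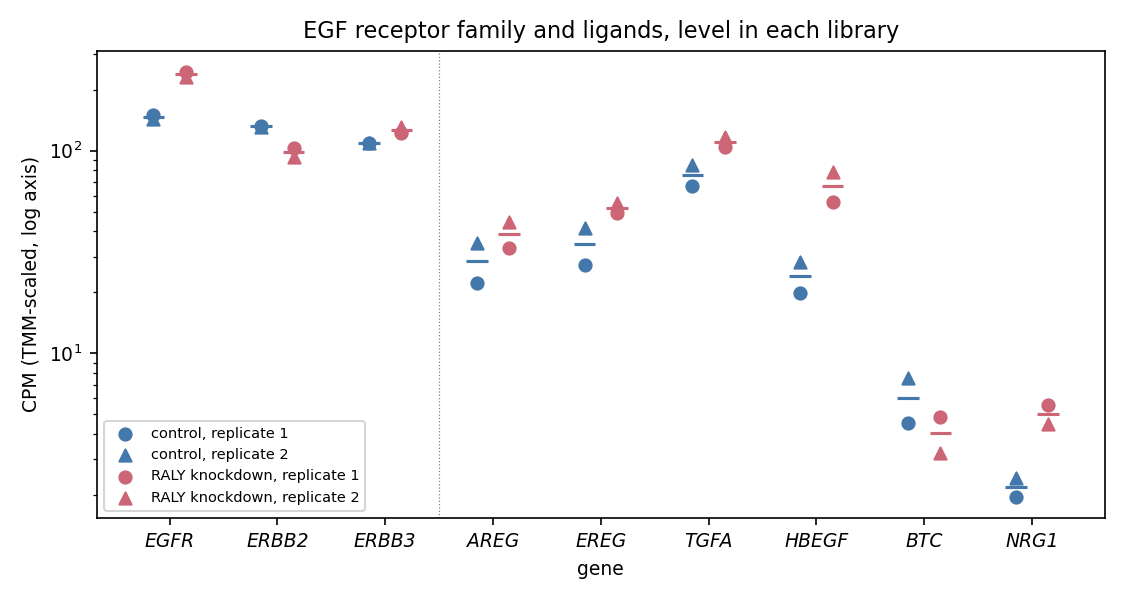
Level of each of the 9 genes in each library, in TMM-scaled CPM on a log axis, with receptors left of the dotted line and ligands right of it; bars are group means (n = 2). EGFR, TGFA, EREG, HBEGF and NRG1 lie higher in both knockdown libraries than in either control, ERBB2 lies lower, and the groups overlap for AREG and BTC.

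EGFR (ENSG00000146648, chromosome 7, positions 55019017 to 55211628, plus strand, GRCh38) was the receptor that rose. Its counts were 1987 and 2489 in the controls against 3922 and 3439 in the knockdown libraries, which correspond to 150 and 144 CPM against 244 and 231 CPM. The lowest knockdown library stood well above the highest control, and the libraries of each group lay close together. The mean went from 147 ± 4.67 to 237 ± 9.48 CPM (SD, n = 2 each), a log2 fold change of 0.69 (SE 0.12, adjusted p = 0.00133 in edgeR). EGFR kept its call without any 1 library, with log2 values between 0.64 and 0.73. The antisense gene EGFR-AS1, with which EGFR shares 1.49% of its exon bases, had no count in any library.

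ERBB2 (ENSG00000141736, chromosome 17, positions 39687914 to 39730426, plus strand), which encodes the receptor also known as HER2, went the other way. It had 133 and 131 CPM in the controls against 103 and 93.0 CPM in the knockdown libraries. The groups did not overlap, and the controls were almost equal. The log2 fold change was -0.43 (SE 0.11, adjusted p = 0.0143 in edgeR), a fall to 74.3% of the control level. The call was lost without control replicate 1 (adjusted p = 0.0952) or replicate 2 (adjusted p = 0.104), where the spread comes mainly from the knockdown pair, and the log2 value was then -0.46 or -0.45. ERBB2 shares 6.93% of its exon bases with MIEN1 and PGAP3. MIEN1 also fell, by 0.74 on the log2 scale, and PGAP3 had a value of 0.18 that was not called (adjusted p = 0.59 in edgeR). What reads in the shared bases add was not tested.

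ERBB3 (ENSG00000065361, chromosome 12, positions 56076799 to 56103505, plus strand) had 109 CPM in each control and 122 and 130 CPM in the knockdown libraries. The knockdown libraries were the higher ones, by 1.15-fold on average, but the difference did not pass the test (log2 fold change 0.21, SE 0.11, adjusted p = 0.182 in edgeR). ERBB4, the fourth receptor of the family, was at a low level, with counts of 13 and 23 in the controls against 19 and 23 after knockdown.

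**Figure D2:**
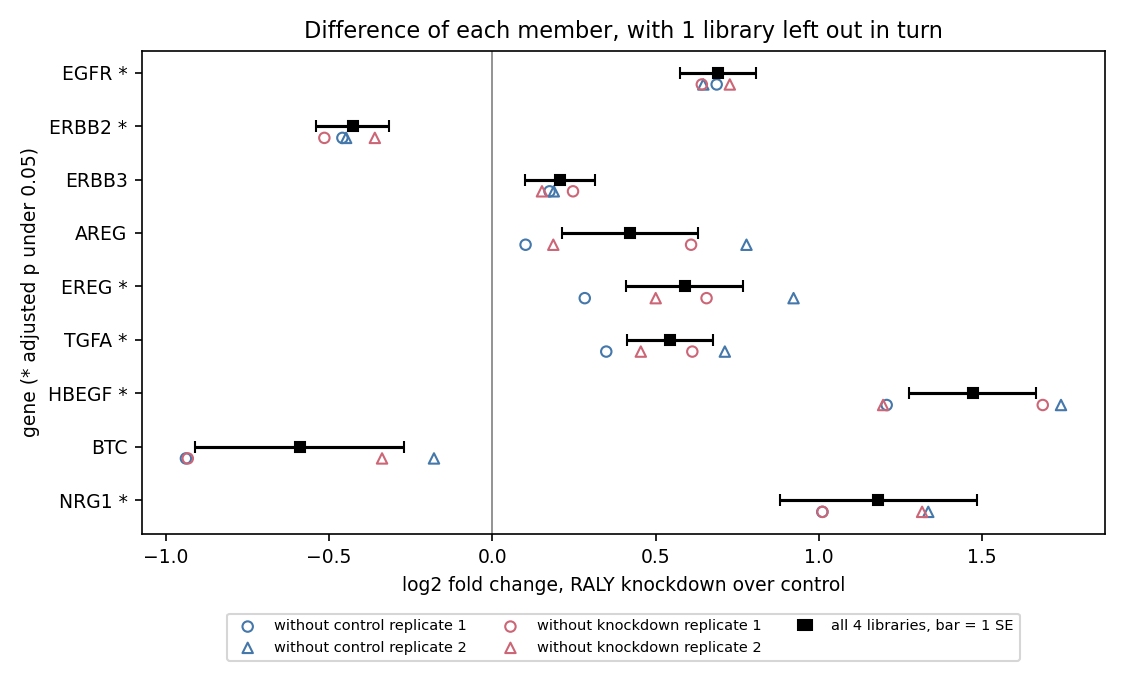
Log2 fold change of each gene, RALY knockdown over control, from all 4 libraries (black squares, bar 1 SE) and with 1 library left out (open symbols). EGFR and ERBB2 move least among the called genes, and AREG, EREG and TGFA come closest to 0 without control replicate 1.

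The balance among the receptors differed between the groups. Levels of different genes were compared as CPM per kilobase of all annotated exons. On that scale the controls had 12.8 and 12.7 for ERBB2, 12.1 and 12.0 for ERBB3 and 12.0 and 11.5 for EGFR, so that the receptors lay within a narrow band with ERBB2 at the top. In the knockdown libraries EGFR had 19.5 and 18.4, ERBB3 had 13.5 and 14.4 and ERBB2 had 10.0 and 9.01, and the order was the opposite. The ratio of EGFR to ERBB2 within a library was 0.934 and 0.901 in the controls against 1.95 and 2.04 in the knockdown. The ratio of ERBB3 to ERBB2 was 0.943 and 0.944 against 1.34 and 1.60. Neither ratio overlapped between the groups, and with 2 libraries a group an exact two-sided permutation test cannot go below p = 0.333. With the length of the canonical transcript in place of all exons, which is much shorter for ERBB2 (4557 against 10321 bases), the EGFR to ERBB2 ratio was 0.521 and 0.503 in the controls against 1.09 and 1.14 in the knockdown. ERBB2 then stood clearly above EGFR in the controls, and its order with ERBB3 in the knockdown differed between the libraries.

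**Figure D3:**
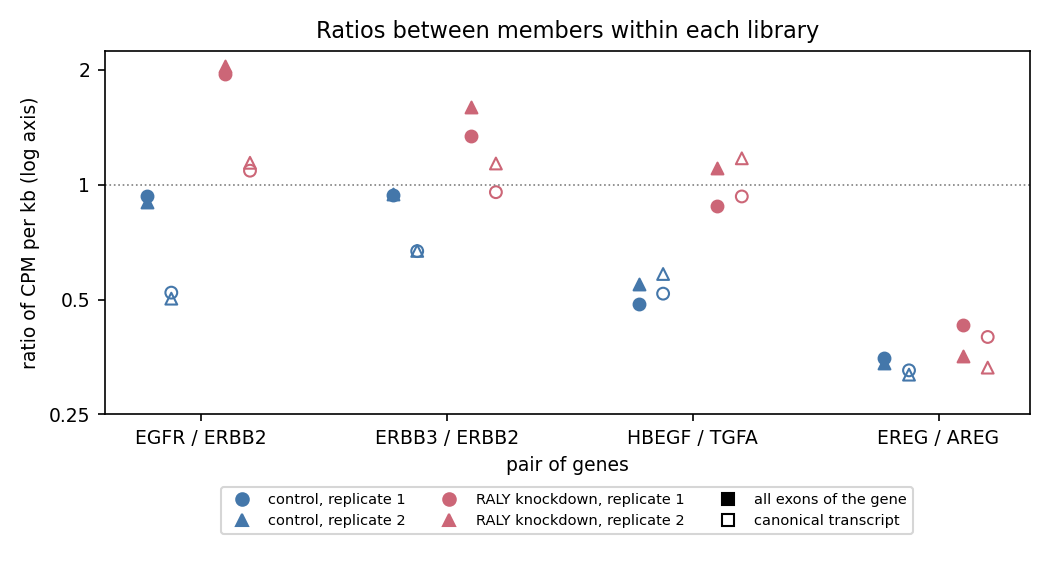
Ratio of the levels per kilobase of 4 pairs of genes within each library, on a log axis, with all exons (filled) or the canonical transcript (open) as the length. The ratios of EGFR and of ERBB3 to ERBB2 and of HBEGF to TGFA are higher in both knockdown libraries, and the ratio of EREG to AREG changes least.

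Promoter windows of the receptor that rose and the receptor that fell are shown because these genes moved in opposite directions. Each window runs from 250 bases before to 50 bases after the transcription start in RefSeq (GRCh38.p14), 5′ to 3′ on the strand of the gene, and 7 of the 9 members had at least 1 window. EGFR had a second window, further downstream, that is not shown. It held 2 AP-1 matches, 2 TATA boxes, 1 TEAD match and no GC box at 42% G and C, so a contrast between EGFR and ERBB2 depends on the window taken. The ERBB2 window lies at the 5′ edge of the gene, and no other ERBB2 start had a window. Which start of either gene these cells use was not tested. Capitals mark matches, on either strand, to 6 motifs: AP-1 (TGANTCA), the cyclic AMP response element (TGACGTCA), the TATA box (TATAAA), the GC box (GGGCGG), TEAD (GGAATG) and ETS (CCGGAAG). The EGFR window (chr7:55018767-55019066, plus strand, 75.3% G and C) held 3 GC boxes, as 45.0% of the 35116 RefSeq windows held at least 1. The ERBB2 window (chr17:39687844-39688143, plus strand, 60.7% G and C) held no GC box but a pair of ETS matches just before the start, in opposite orientation, and 1 AP-1 match; 10.3% of all windows held an ETS match and 7.71% an AP-1 match. The median G and C share of all windows was 58.7%.
EGFR: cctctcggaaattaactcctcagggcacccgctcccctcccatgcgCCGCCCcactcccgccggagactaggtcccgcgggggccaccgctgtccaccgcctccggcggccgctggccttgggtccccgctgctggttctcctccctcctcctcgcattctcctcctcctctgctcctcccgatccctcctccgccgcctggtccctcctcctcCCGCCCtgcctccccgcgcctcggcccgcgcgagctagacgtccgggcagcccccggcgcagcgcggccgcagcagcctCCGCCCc
ERBB2: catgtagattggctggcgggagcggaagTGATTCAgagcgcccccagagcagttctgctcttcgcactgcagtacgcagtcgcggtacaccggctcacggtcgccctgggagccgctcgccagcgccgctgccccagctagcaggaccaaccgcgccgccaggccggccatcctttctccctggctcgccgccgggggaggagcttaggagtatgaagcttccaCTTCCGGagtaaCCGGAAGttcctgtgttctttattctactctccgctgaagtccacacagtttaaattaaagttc
A match is a run of letters and was not tested as a binding site.

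HBEGF (ENSG00000113070, chromosome 5, positions 140332843 to 140346603, minus strand), the heparin-binding ligand of EGFR and ERBB4, rose most of the 9. Its counts were 263 and 491 in the controls against 897 and 1172 in the knockdown libraries, or 19.9 and 28.3 CPM against 55.8 and 78.6 CPM. Both knockdown libraries were well above both controls, although the libraries within each group differed by 1.42-fold and 1.41-fold. The mean went from 24.1 ± 5.98 to 67.2 ± 16.1 CPM (SD, n = 2 each), a log2 fold change of 1.47 (SE 0.19, adjusted p = 0.000316 in edgeR). The call held without any 1 library, with log2 values from 1.197 to 1.74.

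TGFA (ENSG00000163235, chromosome 2, positions 70447284 to 70554193, minus strand) encodes transforming growth factor alpha, a ligand of EGFR. Its levels were 67.0 and 84.8 CPM in the controls against 105 and 117 CPM in the knockdown libraries. The groups did not overlap, and the gap between them was only slightly wider than the gap between the controls. The log2 fold change was 0.54 (SE 0.13, adjusted p = 0.0101 in edgeR), and without control replicate 1 it was 0.35 and not called (adjusted p = 0.194).

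EREG (ENSG00000124882, chromosome 4, positions 74365145 to 74388749, plus strand) encodes epiregulin, which binds EGFR and ERBB4. It had 27.2 and 41.7 CPM in the controls against 49.2 and 55.0 CPM in the knockdown libraries. The higher control came close to the lower knockdown library without reaching it. The log2 fold change was 0.59 (SE 0.18, adjusted p = 0.0298 in edgeR), a call that was lost without control replicate 1 (log2 fold change 0.28, adjusted p = 0.373) and with plain library totals as the scale (adjusted p = 0.0716). The log2 value was 0.92 without control replicate 2.

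AREG (ENSG00000109321, chromosome 4, positions 74445136 to 74455005, plus strand) encodes amphiregulin, a ligand of EGFR alone. It had 22.3 and 35.1 CPM in the controls against 33.0 and 44.4 CPM in the knockdown libraries. The higher control exceeded the lower knockdown library, so the groups overlapped. The log2 fold change of 0.42 (SE 0.21) did not pass the test (adjusted p = 0.157 in edgeR). Its value ran from 0.10 without control replicate 1 to 0.78 without control replicate 2, and it was called higher without knockdown replicate 1 (log2 fold change 0.61, adjusted p = 0.00175). Between libraries with the same number and source label, AREG was higher in the knockdown in both cases, and a fit with the replicate number as a block called it higher (log2 fold change 0.45, adjusted p = 0.00887).

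BTC (ENSG00000174808, chromosome 4, positions 74744759 to 74794523, minus strand) encodes betacellulin, a ligand of EGFR and ERBB4. Its counts were 60 and 131 in the controls against 78 and 48 in the knockdown libraries, or 4.54 and 7.56 CPM against 4.86 and 3.22 CPM. The groups overlapped, and the log2 fold change of -0.59 (SE 0.32) did not pass the test (adjusted p = 0.199 in edgeR). It was -0.18 without control replicate 2, and -0.93 and called lower without knockdown replicate 1 (adjusted p = 0.0218).

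The libraries of the control group differed more for the ligands among the members than for the receptors. All 5 EGFR ligands among the members were higher in control replicate 2 than in control replicate 1, by 1.27-fold for TGFA to 1.67-fold for BTC, while for EGF, a ligand outside the 9, the ratio was 0.835. The same ratio was 0.956 to 0.993 for the 3 receptors. Over all tested genes its median was 1.002, with the lower and upper deciles at 0.831 and 1.42. The log2 values of HBEGF, TGFA, EREG and AREG were accordingly all lower without control replicate 1 than without control replicate 2. Replicate 2 of both groups has the source label HCT-117. In the knockdown pair, replicate 2 was the higher one by 1.34-fold for AREG, 1.41-fold for HBEGF and 1.12-fold for EREG and for TGFA, and the ratio for BTC was 0.663. The part of the label in these differences was not tested.

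AREG, EREG and BTC are neighbours. With EPGN, the gene of the EGFR ligand epigen, they lie within 486 kb on chromosome 4, and no other protein-coding gene of the tables lies wholly inside that span. EREG ends 56.4 kb before AREG starts, on the same strand. The EREG to AREG ratio per kilobase was 0.351 and 0.342 in the controls against 0.429 and 0.357 in the knockdown libraries. EPGN had counts of 4 and 12 in the controls against 24 and 16 after knockdown, and the difference was not called (log2 fold change 1.30, adjusted p = 0.0735 in edgeR). Within the span, then, 1 of the 4 ligand genes was called higher, and BTC had a negative value where the other 3 had positive ones.

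The promoters of EREG, AREG and HBEGF are shown because the first pair are neighbours and HBEGF is the ligand with the largest rise. EREG (chr4:74364895-74365194, plus strand) and AREG (chr4:74444886-74445185, plus strand) each held a TATA box, first base at -32 and -29 from the start, as did 11.5% of all windows. AREG also held a cyclic AMP response element at -65, found in 1.85% of all windows, and 1 GC box, and EREG held a TEAD match at -175, found in 14.0% of all windows. HBEGF (chr5:140346554-140346853, minus strand) held 5 GC box matches and no TATA box, and its share of G and C was 75.0%, against 57.7% for EREG and 66.3% for AREG. Capitals mark the same 6 motifs as above, and a pair of GC boxes in HBEGF overlap by 1 base.
EREG: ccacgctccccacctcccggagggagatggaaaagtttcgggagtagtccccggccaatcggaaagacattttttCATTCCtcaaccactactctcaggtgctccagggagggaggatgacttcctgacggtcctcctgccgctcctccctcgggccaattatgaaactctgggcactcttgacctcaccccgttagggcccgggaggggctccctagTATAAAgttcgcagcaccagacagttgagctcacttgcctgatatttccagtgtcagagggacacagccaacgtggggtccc
AREG: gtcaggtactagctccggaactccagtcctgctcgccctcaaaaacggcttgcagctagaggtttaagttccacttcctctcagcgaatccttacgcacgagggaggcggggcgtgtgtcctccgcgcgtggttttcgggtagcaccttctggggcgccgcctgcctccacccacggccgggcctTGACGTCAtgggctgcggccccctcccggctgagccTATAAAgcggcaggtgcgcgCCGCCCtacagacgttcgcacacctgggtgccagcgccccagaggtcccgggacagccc
HBEGF: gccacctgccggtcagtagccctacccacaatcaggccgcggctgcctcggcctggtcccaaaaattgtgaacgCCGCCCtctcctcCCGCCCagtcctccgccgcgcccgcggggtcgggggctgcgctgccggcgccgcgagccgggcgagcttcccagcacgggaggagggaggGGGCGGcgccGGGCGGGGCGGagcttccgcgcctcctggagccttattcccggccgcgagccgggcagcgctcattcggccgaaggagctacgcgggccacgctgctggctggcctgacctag

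Summed per kilobase of exon, transcripts of the 7 EGFR ligands (the 5 members with EGF and EPGN) were more abundant in the knockdown libraries. The sum was 41.7 and 59.6 CPM per kilobase in the controls against 71.8 and 88.9 in the knockdown. The groups did not overlap, and the controls differed from each other by more than the higher control differed from the lower knockdown library. AREG made up 32.6% and 35.9% of the sum in the controls against 28.0% and 30.4% in the knockdown. HBEGF made up 16.0% and 15.9% in the controls against 26.0% and 29.6% in the knockdown, the widest gap in percentage points among the 7. TGFA held 32.7% and 28.9% against 29.6% and 26.8%, and EREG held 11.4% and 12.3% against 12.0% and 10.8%. BTC held 4.10% and 4.78% against 2.55% and 1.37%, so that BTC stayed a small part of the sum in every library. The ratio of HBEGF to TGFA was 0.488 and 0.550 in the controls against 0.878 and 1.10 in the knockdown. The order of the ligands in the controls, with AREG and TGFA first, then HBEGF, EREG and BTC, held with either length. With all exons the top pair exchanged places between the controls, and neither AREG and TGFA nor HBEGF and EREG, neighbours in that order, were apart beyond the spread between the controls. Against the receptors, AREG and TGFA stood first in both controls with all exons, and ERBB2 stood first with the canonical transcript.

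**Figure D4:**
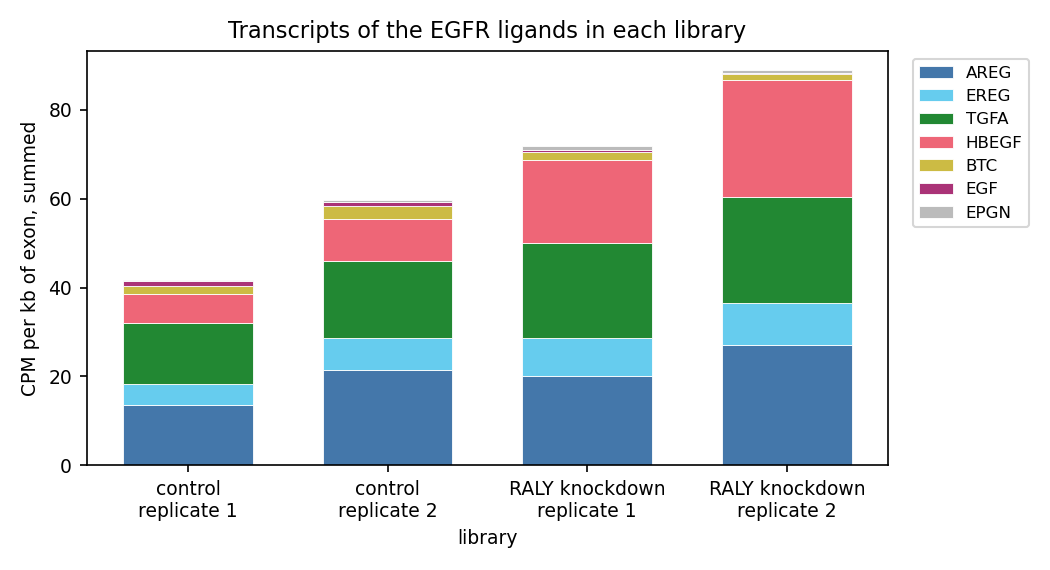
Summed level of the 7 EGFR ligands in each library, in CPM per kilobase of exon, divided by ligand. The sum is 41.7 and 59.6 in the controls against 71.8 and 88.9 in the knockdown libraries, and the HBEGF part widens from 16.0% and 15.9% to 26.0% and 29.6%.

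NRG1 encodes neuregulin, which binds ERBB3 and ERBB4, and was the lowest of the 9 per kilobase in every library (0.0919 to 0.259 CPM per kilobase of exon). The gene (ENSG00000157168) spans chromosome 8, positions 31639222 to 32855666, on the plus strand. Its counts were 26 and 42 in the controls against 89 and 67 in the knockdown libraries, or 1.97 and 2.42 CPM against 5.54 and 4.50 CPM. Both knockdown libraries lay above both controls. The log2 fold change was 1.18 (SE 0.30, adjusted p = 0.0133 in edgeR). The call was lost without control replicate 1 (adjusted p = 0.183) or 2 (adjusted p = 0.114) and in the DESeq2 Wald test (adjusted p = 0.057).

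For each called member, the protein-coding gene of at least 5 CPM with the most similar profile over the 4 libraries was found among 12411 genes, as the smallest distance between centred log2 CPM values. It was GPR137C for HBEGF (distance 0.06), ADGRV1 for NRG1 (0.04), ZNF559 for EGFR (0.04), ONECUT2 for EREG (0.06) and STX11 for TGFA (0.03). For ERBB2 the closest was the unnamed gene ENSG00000256349 (0.02), followed by ACAD11 (0.02). A closest gene always exists among 12411, no typical distance was computed, and shared regulation was not tested.

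The rest of the pathway was read from 8 lists with 124 genes in all, of which 117 could be tested. Of these, 21 were called higher (17.9%) and 10 lower (8.55%), against 12.5% and 13.1% of all tested genes. Their median log2 fold change was 0.08. Among the other receptors and ligands of the family, 5 of 6 genes were tested and 1 fell. EGF, the ligand that names the family, had counts of 117 and 128 in the controls against 60 and 34 after knockdown, a fall from 8.12 ± 1.03 to 3.01 ± 1.03 CPM (SD, n = 2 each) and a log2 fold change of -1.42 (SE 0.30, adjusted p = 0.00459 in edgeR). It was lower where HBEGF, TGFA and EREG were higher, and lost its call without control replicate 1 or without control replicate 2. ERBB4, EPGN, NRG2 and NRG4 were not called, with log2 fold changes from -0.25 to 1.30, and NRG3 had no count.

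Of 9 tested genes that shed or traffic the ligands, 1 rose (11.1%) and 2 fell (22.2%), with a median log2 fold change of 0.18. Over all tested genes the shares were 12.5% and 13.1%. RHBDF2, an inactive rhomboid protein that carries ADAM17 to the cell surface, fell from 97.9 ± 1.78 to 47.6 ± 7.57 CPM, a log2 fold change of -1.04 (SE 0.13, adjusted p = 0.000232 in edgeR), and its call held without any 1 library. ADAM17, the main ligand-shedding protease, had a log2 fold change of 0.36 and was called higher, and the related ADAM15 fell by 0.38. ADAM17 lost its call without either control or knockdown replicate 2, and ADAM15 without either control or knockdown replicate 1. ADAM17 shares 13.6% of its exon bases with IAH1 and another gene. The uncalled genes of the list were named after their values were seen. RHBDF1 had a value of 0.39 (adjusted p = 0.2 in edgeR) and ADAM10 a value of 0.27 (adjusted p = 0.11 in edgeR). The others were FRMD8 (0.19), TSPAN15 (0.18), NRDC (-0.07) and ADAM9 (-0.15), and ADAM12, RHBDL2 and TIMP3 were not tested.

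In the list of 16 receptor brakes, 6 genes were called higher (37.5%) and 1 lower (6.25%), against 12.5% and 13.1% of all tested genes. The median log2 fold change was 0.19. Whether each gene of the list restrains the receptors, in these cells or in general, was not tested. The name of the list does not settle how each gene acts, so its counts need not be counts of brakes. LRIG3, a leucine-rich repeat membrane protein, went from 37.1 ± 1.94 to 71.3 ± 8.98 CPM, a log2 fold change of 0.94 (SE 0.13, adjusted p = 0.000507 in edgeR). SOCS4, a suppressor of cytokine signalling, rose by 0.70 and the phosphatase UBASH3B by 0.72 on the log2 scale. CBL, the ubiquitin ligase that marks active EGFR for breakdown, rose by 0.75. PTPN2 and SOCS5 were the other 2, with SOCS5 just under the threshold (adjusted p = 0.0499 in edgeR). These 3 were named after their values were seen. LRIG1, a relative of LRIG3 that lowers EGFR protein, fell from 1.58 ± 0.303 to 0.458 ± 0.207 CPM, a log2 fold change of -1.79 (SE 0.48, adjusted p = 0.0168 in edgeR) on 18 and 31 against 5 and 9 counts. LRIG1 shares 12.9% of its exon bases with SLC25A26. The count of higher genes fell to 4 when control replicate 1 was left out and 3 when control replicate 2 was, and LRIG1 lost its call without either control or knockdown replicate 1.

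Adaptors and RAS pathway kinases gave 3 higher (12%) and 2 lower (8%) of 25, with a median log2 fold change of 0.04. Over all tested genes the shares were 12.5% and 13.1%. The docking protein gene GAB1 and the RAS brakes NF1 and RASA1 had log2 fold changes of 0.62, 0.57 and 0.32 and were called higher, and RASA1 shares 14.7% of its exon bases with CCNH. NF1 had a value of 0.19 without knockdown replicate 1 (adjusted p = 0.292) and GAB1 one of 0.31 without knockdown replicate 2 (adjusted p = 0.164), so both calls were lost without 1 knockdown library. SHC2, an adaptor, fell by 1.31, and MAPK3, which encodes a kinase at the end of the RAS cascade, fell by 0.52. Without control replicate 1 the counts were 0 higher and 1 lower, and without control replicate 2 they were 0 and 0. In the phosphoinositide 3-kinase and AKT branch, 3 of 19 rose (15.8%) and 2 fell (10.5%), with a median of 0.03. IRS1, IRS2 and PIK3R1, the docking proteins of the insulin receptor and a regulatory subunit, rose by 0.93, 0.69 and 0.50, and the kinase gene AKT2 fell by 0.61. PIK3R2 fell by 0.89, but shares 88.2% of its exon bases with another gene, so its counts are uncertain. The counts in that branch were 0 higher and 1 lower without control replicate 1 and 2 and 1 without control replicate 2. Of 20 endocytosis and sorting genes, 3 rose (15%) and 1 fell (5%), with a median of 0.00. STAM, STAM2 and the deubiquitinase USP8, which handle receptors at the endosome, rose by 0.57, 0.38 and 0.36, and VPS4A, which shares 36.4% of its exon bases with other genes, fell by 0.42. None of these 4 calls held when either control was left out, and 2 genes were called lower without knockdown replicate 1.

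Genes that report activity of the MAPK pathway rose in 3 of 9 tested cases and fell in none (median log2 fold change 0.26), or 33.3% against 12.5% of all tested genes. EPHA2, an ephrin receptor, rose from 200 ± 12.5 to 313 ± 28.1 CPM, a log2 fold change of 0.65 (SE 0.13, adjusted p = 0.00351 in edgeR). Its occupancy was 50.1%, where counts are assumed to level off. The feedback inhibitors SPRY2 and SPRY4 had log2 fold changes of 0.46 and 0.36 and were called higher. DUSP4, CCND1 and ETV4 had values of 0.26, 0.37 and 0.18 that were not called. The occupancies of CCND1 and ETV4 were 58.4% and 50.8%, so their values may be understated under the same assumption. PHLDA1, DUSP6 and ETV5 had negative values of -0.05, -0.06 and -0.23, also not called. These uncalled genes were named after their values were seen. The count of higher genes was 0 without control replicate 1, 1 without control replicate 2 and 1 without knockdown replicate 2.

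**Figure D5:**
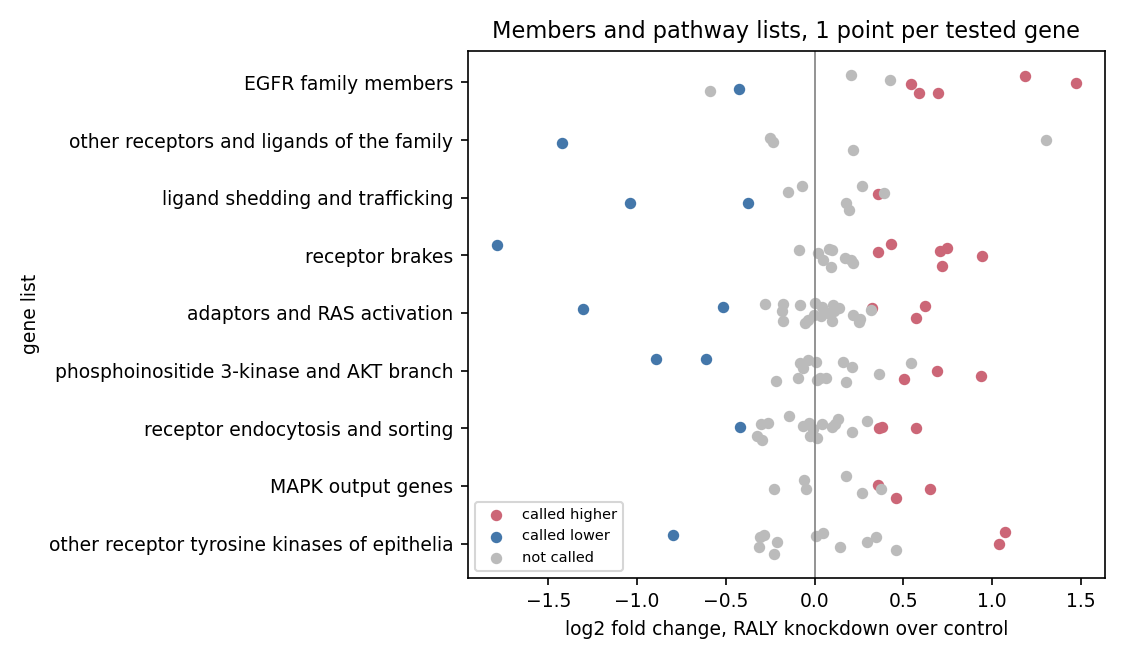
Log2 fold change, RALY knockdown over control, of each tested gene of the EGF receptor family set and of the 8 pathway lists, coloured by call (edgeR adjusted p under 0.05); vertical position within a list carries no value. Higher calls outnumber lower ones among the 9 members (5 and 1), the receptor brakes (6 and 1) and the MAPK output genes (3 and 0). They also do so for endocytosis (3 and 1), adaptors (3 and 2), phosphoinositide 3-kinase (3 and 2) and other receptor tyrosine kinases (2 and 1). Lower calls outnumber higher ones for ligand shedding (2 and 1) and the other family genes (1 and 0).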

How the data were processed

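RNA sequencing counts of 2 control and 2 RALY knockdown libraries were analysed. The deposited values are whole-number read counts per gene, 1 table per library, per the file headers. The submitters' processing notes name HISAT2 2.0.4, SAMtools, featureCounts and Subread, with GRCh38. Tool roles, the strand setting and any duplicate removal were not stated there. Symbols, biotypes and canonical transcript lengths came from GENCODE release 44, which held 58472 of the 58884 genes. Counts were filtered (filterByExpr), scaled with TMM and tested with the robust quasi-likelihood test of edgeR 4.0.16 under R 4.3.3, with a term for the group and Benjamini-Hochberg adjustment over 19686 genes. The procedure was checked on simulated counts that had the same dispersion for every gene and no replicate effect. These libraries differ from that setting, so the check does not show how firm the calls here are. The SE of a log2 fold change is its absolute value divided by the square root of the quasi-likelihood F statistic, and is not read directly from the fit. CPM use TMM-scaled totals. Levels per kilobase use the exon length in the tables.

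Named from each pathway list were the called genes with the smallest p, at most 3 for the direction with more calls and at most 2 for the opposite one. Libraries of a group differed by more than counting error (chi-square over its degrees of freedom 5.10 in controls, 9.32 in knockdown) and were kept as separate replicates. The members and lists were chosen with earlier results of these data known. Alternatives were other scalings, the DESeq2 1.42.0 Wald test, other filters, a minimum fold of 1.2, the replicate number as a block, counts corrected for levelling off, and each library left out.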

Additional observations from a re-analysis of the deposited data

How the results depend on the processing

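No member changed direction in any of the 12 alternatives, and 6 of the 9 were called with all libraries. Leaving out control replicate 1 left 2 calls and leaving out control replicate 2 left 4; the spread then comes from the more variable knockdown pair. Leaving out knockdown replicate 1 gave 8 and replicate 2 gave 6. Over the libraries left out, log2 fold changes ran from -0.51 to -0.36 for ERBB2, 0.10 to 0.78 for AREG, 0.28 to 0.92 for EREG, 0.35 to 0.71 for TGFA, -0.94 to -0.18 for BTC and 1.01 to 1.34 for NRG1. EGFR and HBEGF were called in all 12 alternatives. With a minimum fold of 1.2, ERBB2 (-0.43) and EREG (0.59) lost their calls; EREG also did so with plain library totals (0.56), and NRG1 with the DESeq2 Wald test (1.18). Counts corrected for levelling off kept all 6 calls.

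Over all genes, 2470 were called higher and 2578 lower, against 1480 and 1604 with a minimum fold of 1.2, and 340 to 2957 and 508 to 3213 with 1 library left out. The replicate numbers are not stated to mark a shared batch, though same-numbered libraries share a source label; deviations of same-numbered libraries correlated at 0.219 across genes, which are not independent replicates. With the replicate block, 3518 genes were higher and 3536 lower, and AREG was called (0.45, adjusted p = 0.00887), as were 5 higher and 4 lower of the other receptor tyrosine kinases and 4 lower endocytosis genes.

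Per kilobase of canonical transcript, mean levels over the 4 libraries were 25.3 for ERBB2, 20.9 for ERBB3, 27.3 for AREG and 0.301 for NRG1, against 11.1, 13.0, 20.5 and 0.169 CPM with all exons. Low counts limit NRG1, BTC, EPGN and LRIG1.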

Other observations

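Of 14 tested receptor tyrosine kinases outside the family, 2 rose and 1 fell (14.3% and 7.14%, against 12.5% and 13.1% of all tested genes), with a median log2 fold change of 0.03. The level of AXL, a receptor for GAS6, rose from 64.2 ± 3.90 to 135 ± 13.2 CPM (SD, n = 2 each), a log2 fold change of 1.07 (SE 0.12, adjusted p = 0.0001 in edgeR). IGF1R, the receptor for insulin-like growth factors, rose from 73.8 ± 9.55 to 152 ± 29.4 CPM, with a log2 fold change of 1.04 (SE 0.15, adjusted p = 0.000463 in edgeR). Both calls held without any 1 library. RET, the receptor of the GDNF family, fell by 0.80 on the log2 scale, from 25.7 ± 2.89 to 14.8 ± 4.85 CPM, and was not called without either control. Its log2 value was -0.51 without knockdown replicate 1 and -1.18 without knockdown replicate 2.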
